A study of Mus musculus with 3 samples.

Results

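Hox genes encode homeodomain transcription factors that give cells of the embryo their address along the head-to-tail axis. Mammals carry them in 4 chromosomal clusters (Hoxa, Hoxb, Hoxc and Hoxd). Genes at matching places in different clusters form paralogue groups numbered 1 to 13, from anterior to posterior. Groups with low numbers pattern the hindbrain and pharyngeal arches, the central groups the trunk, and group 13 the tail end, including the hindgut and limb tips. Adult cells, gut cells among them, often keep part of the Hox pattern of their place of origin. The Hox genes were taken as all probe sets, the groups of oligonucleotides that measure a transcript, whose platform annotation names a single gene with a Hox symbol of cluster a to d. This gave 48 of 45037 non-control probe sets, for 33 of 18193 named genes. Hox genes without a probe set naming them alone are not among these 33.

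The arrays came from CT26.WT, a mouse colon carcinoma cell line. The S100a8 culture and the S100a9 culture spent 12 h in serum-free medium before they were given 4 µg/ml of recombinant mouse S100a8 or S100a9, calcium-binding proteins released by myeloid cells, for 24 h. The control culture received neither protein, its labels give no exposure time, and they disagree on the vehicle, naming bovine serum albumin in one field and saline in others. All groups share the cell line and the serum-free medium, and each was measured on 1 Affymetrix mouse expression array. No test was possible with single arrays, so every ratio below lacks a replicate check. In such bulk RNA, fewer cells expressing a gene and less RNA of it per cell cannot be told apart.

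Values are deposited MAS5 signals on a linear scale. The floor used here was the median of all values of the 3 arrays (76.0), and it is a working limit, not a detection call. Median signals were 78.6 (S100a8), 73.6 (S100a9) and 76.1 (control). Signals of different probe sets depend on their oligonucleotides, so heights are compared between arrays and not between genes. As a guide to stray signal, 77 probe sets for olfactory and vomeronasal receptors, genes probably silent in these cells, were examined. Those above the floor numbered 9 (11.7%) for S100a8, 6 (7.79%) for S100a9 and 5 (6.49%) for control. The label of colon carcinoma had little marker backing. Of 12 measured epithelial and colon markers, 4 lay above the floor on all 3 arrays (Epcam, Krt18, Krt20 and Cdx2), against 58.9% of all named genes. Epcam and Cdx2 stayed below the brightest receptor probe set on every array. Cdh1, Krt8, Krt19, Vil1, Cdx1, Cdh17, Muc2 and Car1 were below it on every array, while 10 of 13 mesenchymal markers, Vim and Twist1 among them, lay above it.

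With the floor at 76.0, the Hox genes with signal lay in groups 3 to 10, and none lay in groups 11 to 13. Of the 33 genes, 15 lay above the floor, each of them on all 3 arrays, and 18 lay below it on all 3. The share of Hox genes with signal (45.5%) was lower than that of all named genes above the floor on all 3 arrays (58.9%) or on at least 1 (64.4%). Groups 4 to 10 held 13 of the 15, from 19 measured genes (68.4%), a share close to those of all named genes. Groups 1 to 3 held 2 of 7, both of them group 3 genes, and groups 11 to 13 held 0 of 7. This pattern depends on the floor: at the 30th percentile (39.2), Hoxa11, Hoxa13, Hoxc13 and Hoxd13 passed it as well, and 22 genes did in all. Of all named genes, 81.7% passed that lower floor. Genes with more probe sets had more chances to pass: 9 of 11 Hox genes with several probe sets lay above the floor, against 6 of 22 with 1 probe set. Among all named genes these shares were 79.7% and 49.3%. In groups 11 to 13, Hoxd13 alone had several probe sets, and the other Hox genes with several belonged to groups 3 to 10. Position along the axis was not separated from the number of probe sets.

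**Figure D1:**
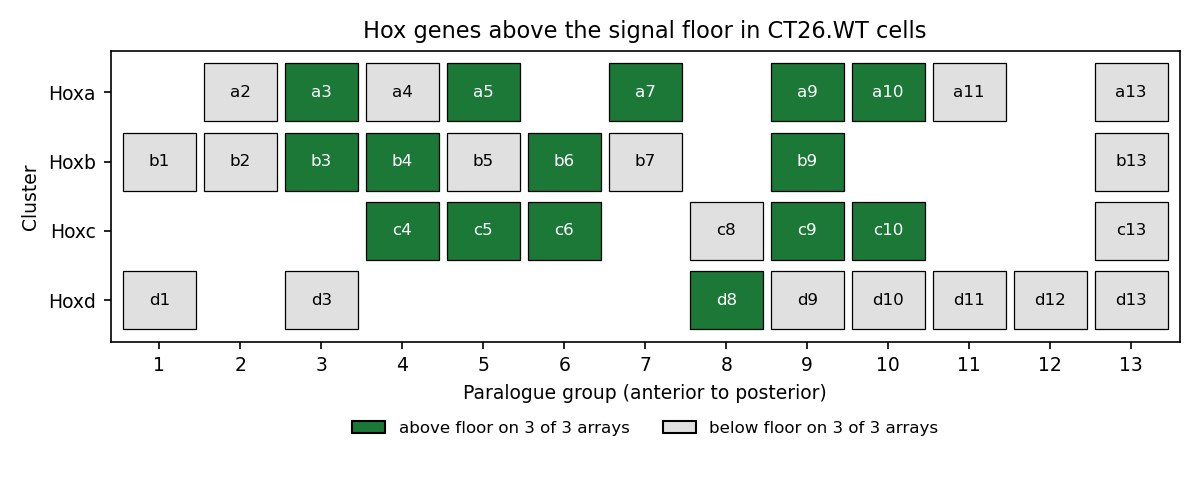
Map of the 33 measured Hox genes by cluster (rows) and paralogue group (columns), coloured by whether the gene's brightest probe set lay above the floor of 76.0 on the 3 arrays. Filled green squares, 15 in all, sit between groups 3 and 10, the posterior columns 11 to 13 hold none, and the Hoxd row holds 1.

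The share of measured genes with signal was 71.4% for Hoxc, 55.6% for Hoxa, 44.4% for Hoxb and 12.5% for Hoxd. Among all named genes, 58.9% lay above the floor on all 3 arrays. With 7 to 9 measured genes each, Hoxa, Hoxb and Hoxc lay around that share and Hoxd below it. These shares were not adjusted for the number of probe sets per gene. The Hoxc cluster, on chromosome 15, had signal for 5 of 7 measured genes: Hoxc4, Hoxc5, Hoxc6, Hoxc9 and Hoxc10. The Hoxa cluster, on chromosome 6, had 5 of 9: Hoxa3, Hoxa5, Hoxa7, Hoxa9 and Hoxa10. In the Hoxb cluster, on chromosome 11, 4 of 9 had signal (Hoxb3, Hoxb4, Hoxb6 and Hoxb9). The Hoxd cluster, on chromosome 2, had 1 of 8, Hoxd8. In the order of RefSeq, and passing over genes without a probe set of their own, the longest run of neighbours with signal was Hoxa5, Hoxa7, Hoxa9 and Hoxa10. The next was Hoxc6, Hoxc5 and Hoxc4.

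Within paralogue groups, signal above the floor was uneven between the clusters. Group 9 had signal in the Hoxa, Hoxb and Hoxc clusters but not for Hoxd9, with 49.8 (S100a8), 51.3 (S100a9) and 46.8 (control). Group 6 had signal for both measured genes, Hoxb6 and Hoxc6. In group 10, Hoxa10 and Hoxc10 had signal, while Hoxd10, a hindlimb and lumbar patterning gene, read 6.58 (S100a8), 5.52 (S100a9) and 5.07 (control). Hoxc8, a thoracic patterning gene lying between Hoxc9 and Hoxc6, was also far below the floor at 8.83, 9.22 and 9.5 on the same arrays. Its neighbours on either side were above the floor on every array, so the Hoxc genes above the floor did not form a single unbroken run. Hoxc8, Hoxd9 and Hoxd10 were each read by 1 probe set, and a low value on it cannot show that the gene is silent. With S100a8, for example, Hoxb4 read 97.2 on 1460379_at and 23.1 on 1451761_at.

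Genes of the posterior groups were below the floor throughout. Hoxa13 and Hoxd13, which pattern the hindgut, the urogenital tract and the limb tips, stayed at or below 55.6. Hoxa13 read 55.6 (S100a8), 48.5 (S100a9) and 40.1 (control), and Hoxd13 read 43.6, 39.8 and 42.9 in that order. Hoxb13, a gene of the caudal spine and prostate, read 29.3, 21.8 and 32.5, and Hoxc13, known for hair and nail formation, 35.8, 39.9 and 39.4. Hoxa11, which acts in kidney, limb and uterus, came closest to the floor among these genes at 66.2, 61.2 and 68.7. Hoxd11 and Hoxd12 did not exceed 25.3 on any array. At the anterior end, the hindbrain gene Hoxb1 and its paralogue Hoxd1 stayed between 4.77 and 18.9, and Hoxa2, which patterns the second pharyngeal arch, between 11.6 and 21.2.

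Some genes lay near the floor on either side. Just above it were Hoxb9 (96.0 for S100a8, 81.2 for S100a9 and 89.1 for control), Hoxb4 and Hoxb3. Just below it were Hoxb2 (71.7, 67.9 and 62.1), Hoxa11 and Hoxa4, the last with at most 61.6. The other genes below the floor were Hoxb5, Hoxb7 and Hoxd3, which had at most 38.3. Against the receptor panel, 13 of the 15 genes exceeded the panel's 95th percentile on all 3 arrays. Hoxa10 and Hoxc4 did so on 2 arrays. On all 3 arrays, 6 genes exceeded the brightest panel probe set, which read 143 (S100a8), 115 (S100a9) and 114 (control). These were Hoxa5, Hoxa7, Hoxa9, Hoxc5, Hoxc6 and Hoxd8.

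Upstream sequence is shown for 3 genes with signal: Hoxa9, whose array differences were small, Hoxd8, which was higher with both proteins, and Hoxc4, which was lower with both. Each is the 250 bases before the RefSeq gene start in GRCm38.p6, read 5′ to 3′ along the gene. They lie at chr6:52227371-52227620 (minus strand) for Hoxa9, chr2:74704365-74704614 (plus strand) for Hoxd8 and chr15:103034145-103034394 (plus strand) for Hoxc4. Capitals mark matches, on either strand, to 4 motifs: AGGTCA, the core bound by retinoic acid receptors; TTTATG, a CDX-type site; TGATTNAT, a composite site of PBX and HOX proteins; and TGACAG, a MEIS-type site.
Hoxa9: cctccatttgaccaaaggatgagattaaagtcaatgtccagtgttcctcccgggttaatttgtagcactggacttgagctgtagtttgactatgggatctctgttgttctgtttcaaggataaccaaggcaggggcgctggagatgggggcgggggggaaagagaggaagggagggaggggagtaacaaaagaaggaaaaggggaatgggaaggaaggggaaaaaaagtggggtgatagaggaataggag
Hoxd8: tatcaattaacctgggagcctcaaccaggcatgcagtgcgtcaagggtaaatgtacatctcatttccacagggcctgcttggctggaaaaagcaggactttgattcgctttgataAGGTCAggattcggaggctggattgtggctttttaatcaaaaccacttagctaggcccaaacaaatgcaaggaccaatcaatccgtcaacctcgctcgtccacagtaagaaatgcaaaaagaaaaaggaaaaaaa
Hoxc4: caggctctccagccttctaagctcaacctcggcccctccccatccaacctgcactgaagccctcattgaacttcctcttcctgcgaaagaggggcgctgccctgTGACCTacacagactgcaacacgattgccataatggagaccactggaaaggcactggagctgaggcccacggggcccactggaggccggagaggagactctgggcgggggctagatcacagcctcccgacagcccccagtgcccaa
The Hoxd8 window held 1 match, AGGTCA, starting 135 bases before the gene start, and the Hoxc4 window held 1 match to the same motif on the other strand, 146 bases before it. The Hoxa9 window held 0 matches. AGGTCA occurs in 14% of the 32851 RefSeq windows of this length, TTTATG in 10.8%, TGATTNAT in 2.82% and TGACAG in 15.9%. Of 24 windows of Hox genes, 6, 5, 2 and 2 held these motifs, in the same order. GC content was 49.6% for Hoxa9, 44.4% for Hoxd8 and 62.0% for Hoxc4, against a median of 52.4% over all windows. A letter match describes the sequence and is not evidence of binding in these cells.

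Hoxd8, the only one of the 8 measured Hoxd genes with signal, was higher than control with either protein on both of its probe sets. Hoxd8 acts with its paralogues in patterning the trunk. Its brightest probe set (1431099_at) read 257 (S100a8), 296 (S100a9) and 209 (control). The other (1433638_s_at) read 134, 137 and 99.7. The RefSeq span of a non-coding RNA, Gm38462, holds Hoxd8, and whether either probe set reads Hoxd8 alone was not tested. Both protein-treated arrays lay above the control array on each probe set. The log2 ratios to control were 0.30 (S100a8) and 0.50 (S100a9) on the first probe set and 0.42 and 0.46 on the second. On the brightest probe set these are folds of 1.23 and 1.42, short of the 1.5-fold used here as a descriptive size. Among Hox genes with several probe sets above the floor, Hoxd8 and Hoxc6 were the 2 whose probe sets agreed in direction in all 3 comparisons, out of 6 such genes. A ratio with both values at the floor was scored as disagreement, and Hoxa3 and Hoxc5 failed only through such a ratio.

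**Figure D2:**
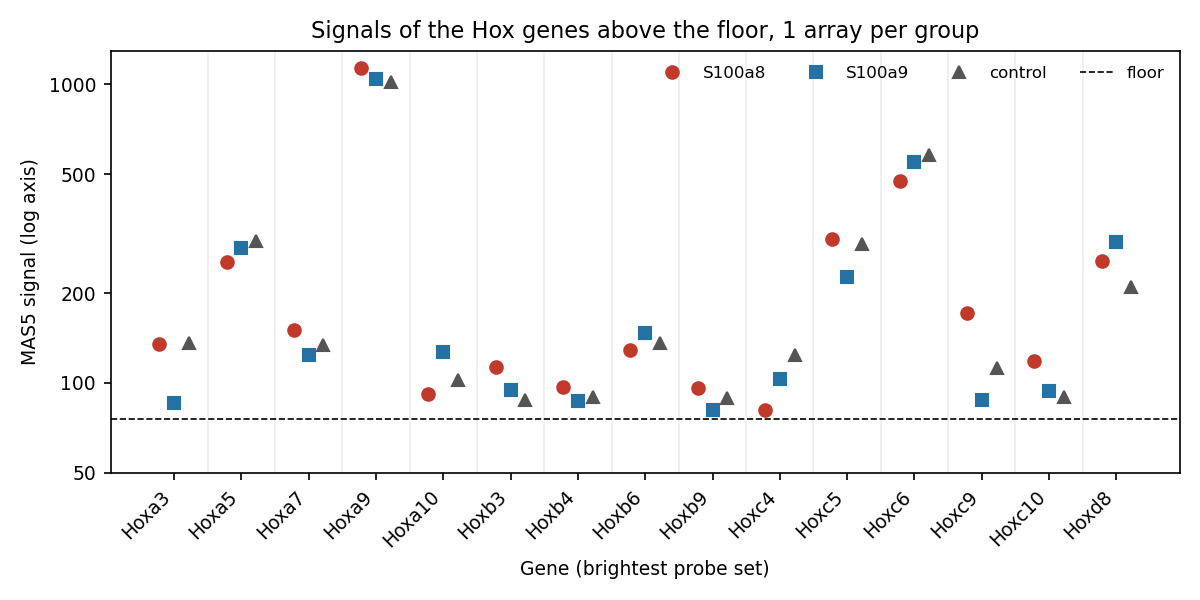
MAS5 signal (log axis) of the brightest probe set of each of the 15 Hox genes above the floor, with 1 point per array for S100a8 (circle), S100a9 (square) and control (triangle), and the floor of 76.0 as a dashed line. Every point lies above the line, the points of most genes lie close together, and those of Hoxc9 are the widest apart (172, 87.7 and 112).

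Hoxc4 and Hoxc6 were below control with either protein, more so with S100a8. Hoxc4, the group 4 gene at the anterior end of its cluster, read 81.1 (S100a8), 103 (S100a9) and 124 (control) on its single probe set (1422870_at). That is 1.53-fold lower with S100a8 and 1.20-fold lower with S100a9. The S100a8 value lay close to the floor. Hoxc6 read 476, 549 and 581 on 1427362_x_at, an ending that marks possible cross-hybridisation, and 229, 275 and 298 on 1427361_at. Its log2 ratios were −0.29 (S100a8) and −0.08 (S100a9) on the first and −0.38 and −0.12 on the second, so that the probe set without that ending showed the same order of arrays. A further Hoxc6 probe set lay below the floor on every array.

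Hoxc5 lies between these genes in RefSeq order and had another pattern. Its brightest probe set (1456301_at) read 303 (S100a8), 227 (S100a9) and 292 (control). The S100a9 array was the low one, with log2 ratios of 0.06 for S100a8 and −0.36 for S100a9. Another probe set (1450832_at) read 81.3, 60.9 and 72.5, above the floor on the S100a8 array alone, so it does not order S100a9 and control. The last (1439885_at) lay below the floor on every array (37.4, 46.2 and 54).

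Hoxc9 had the widest spread of all Hox genes with signal. Hoxc9, which patterns the thoracic spinal cord, read 172 (S100a8), 87.7 (S100a9) and 112 (control) on its single probe set (1449867_at). It was above control with S100a8 (log2 ratio 0.61, 1.53-fold) and below it with S100a9 (−0.36, 1.28-fold lower). S100a9 against S100a8 it was 1.96-fold lower. Its neighbour Hoxc10, a lumbar patterning gene, read 118, 94.0 and 89.7, which gave log2 ratios to control of 0.39 (S100a8) and 0.07 (S100a9). The S100a8 array was the highest for both genes, and of this pair Hoxc9 alone fell on opposite sides of control.

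In the Hoxa cluster the arrays lay less than 1.5-fold apart except for Hoxa3. Hoxa9, best known for its part in blood stem cells and leukaemia, read 1131 (S100a8), 1041 (S100a9) and 1014 (control) on 1455626_at. The other Hoxa9 probe set (1421579_at) read 290, 260 and 295. The lowest array differed between them, and no ratio to control exceeded 1.13-fold in either direction. Hoxa5, which acts in lung and gut development, read 254, 282 and 298 on 1448926_at and 188, 173 and 177 on 1443803_x_at. Its probe sets disagreed on the S100a8 ratio (−0.23 and 0.09). Hoxa7, a trunk patterning gene, read 150, 124 and 134.

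Hoxa10, which acts in the uterus and the lumbar spine, read 92.0 (S100a8), 127 (S100a9) and 102 (control), a log2 ratio of 0.47 for S100a9 against S100a8. Hoxa3, a gene of thymus and parathyroid development, read 135, 85.5 and 136 on 1452421_at. The S100a9 value was 1.59-fold below control, whereas the S100a8 value was level with it (1.01-fold). Another of its 4 probe sets, 1427433_s_at, exceeded the floor on the control array alone (55.9, 66.8 and 86.0), and the remaining pair lay below it. The position of the S100a8 array for Hoxa3 thus depended on the probe set.

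The Hoxb genes were dim and differed little. Hoxb6 read 129 (S100a8), 147 (S100a9) and 136 (control). Hoxb3, a hindbrain gene, read 113, 94.7 and 87.6, with a log2 ratio to control of 0.37 for S100a8 and 0.11 for S100a9. Hoxb4, known for expanding blood stem cells, read 97.2, 87.1 and 89.5. For Hoxb9, log2 ratios to control were 0.11 (S100a8) and −0.13 (S100a9). The 4 Hoxb genes had ratios to control between −0.13 and 0.37.

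**Figure D3:**
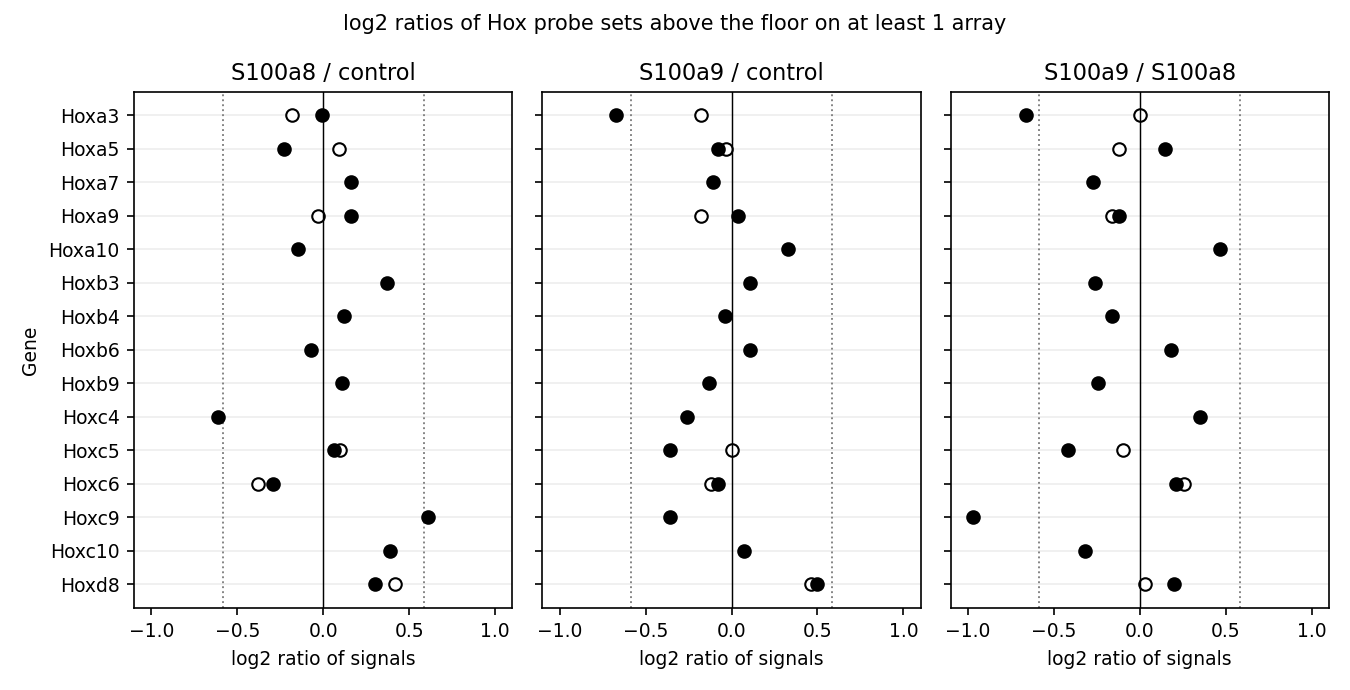
log2 ratios of signals for Hox probe sets above the floor on at least 1 array, for S100a8 against control (left), S100a9 against control (centre) and S100a9 against S100a8 (right), with values below the floor set to it. Filled points are the brightest probe set of a gene, open points its further probe sets, and dotted lines mark 1.5-fold. Hoxc9 and Hoxc4 pass the lines on the left, Hoxa3 in the centre, and Hoxc9 and Hoxa3 on the right.

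With S100a8, 1 of the 15 genes was at least 1.5-fold higher than control (Hoxc9) and 1 at least 1.5-fold lower (Hoxc4). Of all 11713 compared genes, those above the floor on at least 1 array, 1.08% were at least 1.5-fold higher and 1.84% lower. In the brightness range of 13 of the 15 Hox genes, a mean signal under 304, these shares were 2.05% and 2.21% of 4841 genes. The Hox genes had a median log2 ratio of 0.11, with 9 higher and 6 lower, against 0.02 for all compared genes. Dim genes in general were slightly higher on the S100a8 array: those with mean signal under 304 had a median of 0.09.

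With S100a9, 0 of the 15 genes were at least 1.5-fold higher than control and 1 at least 1.5-fold lower (Hoxa3), against 0.239% and 0.828% of all compared genes and 0.331% and 1.07% of the dim ones. The median was −0.08, with 6 higher and 9 lower, against 0.00 for all compared genes and 0.00 for those with mean signal under 304. Hoxd8 had the highest ratio, 0.50. In no comparison was any of the 15 genes 2-fold apart. Background shares for 2-fold were 0.0427% higher and 0.273% lower with S100a8, 0.00854% and 0.137% with S100a9, and 0.0% and 0.0171% for S100a9 against S100a8.

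Between the proteins, Hoxc9 and Hoxa3 were at least 1.5-fold lower with S100a9 than with S100a8 and 0 genes were higher by that much. Of all compared genes, 0.965% were lower and 0.0939% higher. In the dim range, 2.07% were lower and 0.186% higher. The median was −0.16, with 6 higher and 9 lower, against 0.01 for all genes and −0.06 for dim ones. Counts of 1 or 2 among 15 genes are too small to be set apart from these shares. Median centring ended the 1.5-fold count of Hoxc9 with S100a8, a floor at the 95th percentile of the receptor panel (83.7) that of Hoxc4, and averaging all probe sets those of Hoxa3.

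**Figure D4:**
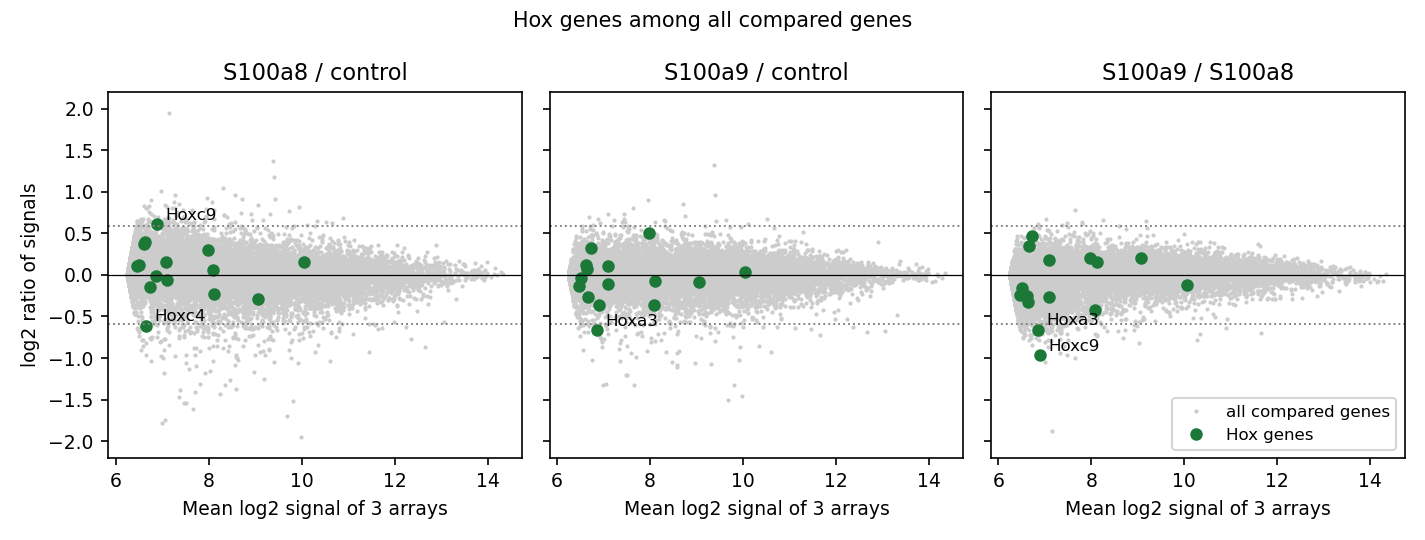
log2 ratio of signals against mean log2 signal of the 3 arrays for all 11713 compared genes (grey) and the 15 Hox genes (green), one panel per comparison, with dotted lines at 1.5-fold. The Hox genes lie mostly at the dim left side and inside the grey cloud, and the labelled ones pass 1.5-fold near its edge.

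The 2 ratios to control share the control array. Set side by side, 4 genes were above control with both proteins (Hoxa9, Hoxb3, Hoxc10 and Hoxd8) and 4 below it with both (Hoxa3, Hoxa5, Hoxc4 and Hoxc6). The remaining 7 had the control between the proteins. Of all compared genes, 53.6% were above control with S100a8 and 49.3% with S100a9. The small S100a9 ratios of Hoxa9 and Hoxb4 changed sign under other settings, Hoxa9 when its probe sets were averaged (−0.07) and Hoxb4 with median centring (0.01) or quantile normalization (0.02). In 12 of the 15 genes the highest and lowest of the 3 arrays were less than 1.5-fold apart. Neither this count nor the split by both proteins was set beside that of all compared genes, so they mark nothing particular to Hox genes. By cluster, the median log2 ratios to control were −0.01 (S100a8) and −0.08 (S100a9) for Hoxa, 0.11 and 0.04 for Hoxb, and 0.06 and −0.26 for Hoxc.

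Hox proteins bind DNA together with cofactors of the TALE homeodomain class. Of 10 measured TALE genes, Tgif1 and Tgif2 among them, 7 lay above the floor on all 3 arrays, against 58.9% of all named genes. In each comparison 0 of them were 1.5-fold apart. With S100a8, 1.08% of all compared genes were that much higher and 1.84% lower, so 0 of 7 is close to the background. Tgif1, a TALE repressor of SMAD signalling, read 903 (S100a8), 1111 (S100a9) and 1265 (control). Pbx2, a direct Hox partner, read 314, 341 and 266, above control with both proteins, and Meis2 304, 349 and 353. Meis1, a partner of Hoxa9 in leukaemia, was below the floor on every array (46.1, 33.8 and 34.7). The 7 TALE genes above the floor had median log2 ratios of −0.06 (S100a8) and −0.04 (S100a9).

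Of the genes that set Hox patterns in the embryo, the CDX factors and retinoic acid are the best known. Cdx2, the intestinal member, read 122 (S100a8), 109 (S100a9) and 101 (control), whereas Cdx1 was below the floor (42.2, 35.6 and 41.3). Of 12 upstream patterning genes, 5 lay above the floor on at least 1 array, against 64.4% of all named genes. Egr2, a hindbrain regulator, was the only one 1.5-fold apart from control, lower with both proteins. Of all compared genes, 1.84% were that much lower with S100a8 and 0.828% with S100a9. Egr2 read 68.6, 78.5 and 120, so that its S100a8 value lay below the floor. Gdf11, which drives the switch to posterior Hox genes in the trunk, read 112, 85.1 and 93.6.

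The lowest ratio among the related lists belonged to a retinoic acid gene, Cyp26b1. Of 15 measured, 8 lay above the floor on at least 1 array, against 64.4% of all named genes. Their median log2 ratios were −0.21 (S100a8) and −0.15 (S100a9). Cyp26b1, which degrades retinoic acid, read 118 (S100a8), 149 (S100a9) and 342 (control), log2 ratios of −1.54 and −1.20. Dhrs3, which lowers retinoic acid by reducing retinal, read 200, 233 and 314 (−0.65 and −0.43). The receptor gene Rarb read 55.6, 82.7 and 112, so its S100a8 value lay below the floor. Rxra, the common partner receptor, read 461, 329 and 338, above control with S100a8 alone (0.45). The binding protein gene Crabp2 read 86.5, 67.9 and 70.0, above the floor on the S100a8 array alone. Its S100a8 ratio of 0.19 is thus a lower bound, and its S100a9 and control values are not ordered. Past 1.5-fold below control were 2 of the 8 with S100a8 (1.84% of all compared genes) and 1 with S100a9 (0.828%), and 0 were that far above it.

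The chromatin machinery that keeps Hox genes off or on had signal throughout. All 20 measured Polycomb genes and all 15 genes of the trithorax, MLL and H3K27 demethylase list lay above the floor on all 3 arrays, as did 58.9% of all named genes. In each comparison 0 of them were 1.5-fold apart, where with S100a8 1.08% of all compared genes were that much higher and 1.84% lower, so a count of 0 is close to the background. Ezh2, the H3K27 methyltransferase, read 1441 (S100a8), 1513 (S100a9) and 1344 (control). Jarid2, a Polycomb partner, read 175, 207 and 224, Mtf2 read 763, 868 and 937, and Phf1 280, 277 and 357. Polycomb medians were −0.08 (S100a8) and −0.09 (S100a9).

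Kmt2a, the MLL methyltransferase that maintains Hox expression, read 672 (S100a8), 771 (S100a9) and 943 (control), with log2 ratios of −0.49 and −0.29. Dot1l, an H3K79 methyltransferase, read 281, 339 and 413. The H3K27 demethylase gene Kdm6b read 248, 284 and 363. Mllt3, a partner of Dot1l, went the other way at 561, 528 and 469. The medians of the list were −0.04 and 0.01.

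**Figure D5:**
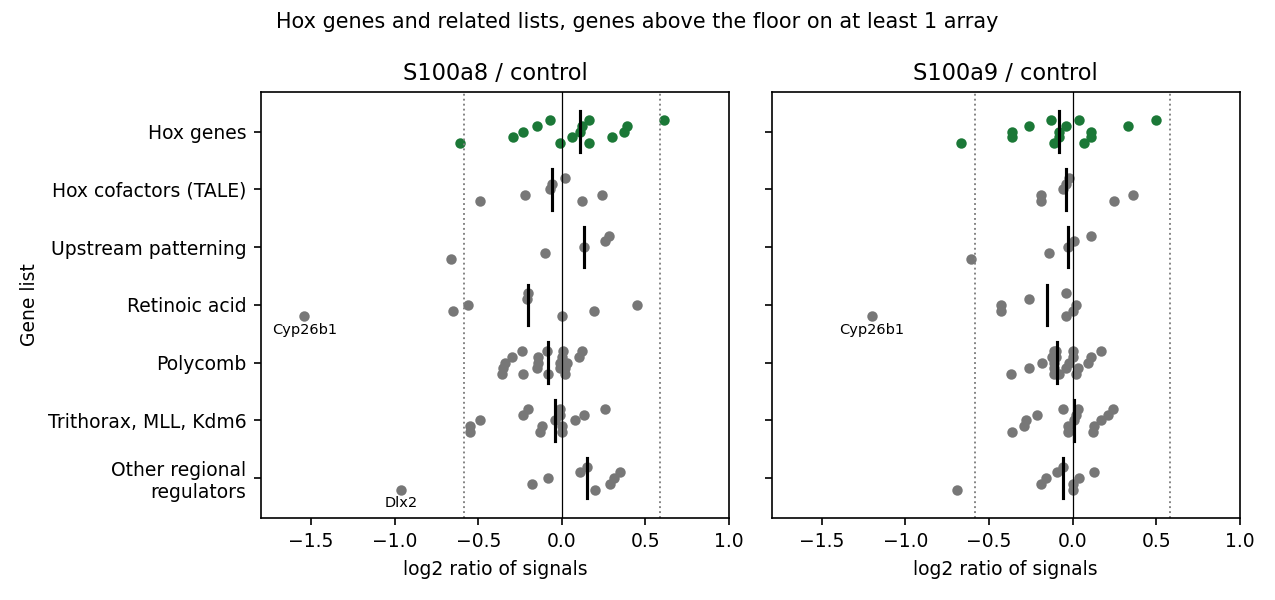
log2 ratios to control for S100a8 (left) and S100a9 (right) of the 15 Hox genes (green) and of 6 related gene lists (grey), genes above the floor on at least 1 array, with medians as black bars and dotted lines at 1.5-fold. Polycomb genes and those of the Hox cofactor (TALE) list lie inside the lines, and Cyp26b1 stands far below control in both panels (−1.54 and −1.20).

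Of 18 other regional regulators, most of them homeobox genes, 9 lay above the floor on at least 1 array, against 64.4% of all named genes. Dlx2, a forebrain and arch gene, read 73.2 (S100a8), 91.7 (S100a9) and 148 (control), and was the only one 1.5-fold apart. Its S100a8 value lay below the floor. Of all compared genes, 1.84% were at least 1.5-fold lower than control with S100a8 and 0.828% with S100a9. Nkx2-3, which patterns gut mesenchyme and spleen, read 203, 153 and 160, and Pdx1, a gene of pancreas and duodenum, 174, 154 and 140. Forebrain and hindbrain regulators Otx1, Otx2, En1 and En2 were below the floor on every array, with Otx2 and En1 at no more than 10.7. Among myeloid markers, 5 of 9 lay above the floor on all 3 arrays, against 58.9% of all named genes. Of these 5, 4 were above control with S100a8 and 5 with S100a9, where 53.6% and 49.3% of all compared genes were higher. Their median log2 ratios were 0.47 and 0.45. Cd68 passed 1.5-fold with S100a8 (0.63) and Cd53 with S100a9 (0.59), where 1.08% and 0.239% of all compared genes were that much higher. The summed signal of the list was 2350 (S100a8), 2615 (S100a9) and 2333 (control), with Cd14 as the largest part, which was below control with S100a8 (−0.39). Ptprc, the pan-leukocyte marker, was below the floor on every array, as were Adgre1, Itgam and Itgax. Mesenchymal markers summed to 29488, 30554 and 31103, with 10 of 10 below control with S100a8 and 7 of 10 with S100a9, where 46.0% and 46.7% of all compared genes were lower. With S100a8, Pdgfra (−0.69), Pdgfrb (−0.92) and Dcn (−0.92) were past 1.5-fold, and with S100a9 Pdgfrb alone was (−0.76). Vim (−0.02), Col1a2 (−0.02), Twist1 (−0.03) and Cdh2 (−0.06) were nearly level with control on the S100a8 array. The 3 lymphoid and the 3 endothelial markers above the floor were all above control with S100a8, where 53.6% of all compared genes were higher. Cd3e, a T cell gene, read 759 (S100a8), 613 (S100a9) and 686 (control), above the dim range. The others read at most 171, in the dim range, whose median with S100a8 was 0.09. The part of other cell types in the Hox values was not tested.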

How the data were processed

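The S100a8, S100a9 and control cultures of CT26.WT gave 1 array each, grouped by the labelled agent. The deposited values are linear probe set intensities, for which the submitters' processing notes name MAS5, with neither version nor scaling target given. The deposited table has 45101 probe sets, of which 64 controls were left out. Because MAS5 corrects each probe by its mismatch partner, dim values are noisy. Scaling to a common level hides changes in total RNA. Precision is limited by the number of arrays.

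The platform annotation gave 34945 probe sets 1 symbol, 932 several and 9160 none. All 48 Hox probe sets kept their symbol when matched by Entrez number to RefSeq (GRCm38.p6), which was used for names, gene order and upstream sequences. Values under the 50th percentile (76.0) were set to it before taking log2. Each gene was represented by the probe set whose mean log2 value was highest and compared if that mean exceeded the floor. With 1 array per group, log2 ratios and folds are descriptions without p-values. The fold size of 1.5 is descriptive.

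The Hox genes and the related lists were chosen with earlier results of these data known. Every Hox gene above the floor was named. In each related list, genes holding the 2 highest or 2 lowest ratios of any comparison were named, with Cdx1, Cdx2, Meis1, Ezh2, Kmt2a, Rarb and Cyp26b1; 1 further gene fixed for naming had no probe set of its own. Marker genes serve as checks only. The alternatives changed the scaling (centring on medians, or quantile normalization), the floor (30th percentile, 65th percentile, or none with 1 added before log2) and the filter (none). Others averaged all probe sets of a gene, preferred probe sets lacking the _x_at and _s_at endings, or used a 2-fold size. A floor at the 95th percentile of the receptor panel was chosen after seeing the data. The ratio script was tested on simulated data. Python 3.11.15, pandas 2.3.3 and numpy 2.4.6 were used.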

Additional observations from a re-analysis of the deposited data

Results flagged for a closer look

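Hoxc9 was on opposite sides of the shared control array with the 2 proteins, 172 with S100a8 and 87.7 with S100a9, against 112 in the control. The log2 ratio of S100a9 to S100a8 was −0.97. Among the 15 Hox genes with signal it was the only one that lay on opposite sides of control and was at least 1.5-fold apart between the proteins. The difference was not tested, and it rests on a single dim probe set and 1 array per group.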

How the results depend on the processing

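The floor decided how many Hox genes counted as having signal. With it at the 65th percentile (154), 6 genes passed in place of 15: Hoxa5, Hoxa9, Hoxc5, Hoxc6, Hoxc9 and Hoxd8. Of all named genes, 50.4% passed that floor. At the 30th percentile (39.2), 22 Hox genes passed, against 81.7% of all named genes. Hoxa13, Hoxd13 and Hoxc13 of group 13 were among the 7 added. The count stayed at 15 with the floor at 83.7, the 95th percentile of the receptor panel. Counts of genes at least 1.5-fold from control or apart between the proteins were small and moved easily. With the floor at the 65th percentile or a 2-fold size, each of these counts was 0. For S100a8, the count higher was 0 with median centring, and the count lower was 0 with the panel floor. For S100a9, the count lower was 0 with the mean of all probe sets. For S100a9 against S100a8, the count lower was 1 with median centring and 1 with the mean of all probe sets. Without the filter the Hox medians were 0.00 for S100a8 and 0.00 for S100a9 against S100a8, since genes at the floor have a ratio of 0. With the floor at the 65th percentile the median for S100a9 against S100a8 was 0.02. Of 378 values of single genes under the alternatives, 364 moved by 0.1 or less on the log2 scale and 14 by more. Of these 14, 11 came from the mean of all probe sets, which can move only genes with several probe sets. The 15 genes lay above the floor on every array, so a lower floor or no filter could hardly move their ratios. The count of 364 is therefore not a measure of robustness. Among the 378 values, 3 changed sign, all small ratios of S100a9 to control. Hoxa9 was at −0.07 with the mean of all probe sets in place of 0.04. Hoxb4 was at 0.01 with median centring and 0.02 with quantile normalization in place of −0.04. With the mean of all probe sets, Hoxa3 was at −0.21 for S100a9 in place of −0.67. No paired analysis was possible because each group held 1 array. Most Hox signals lie within 4 times the floor, where MAS5 values are noisiest.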

Other observations

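Other transcripts of the Hox clusters were measured by 9 further probe sets, 2 of which lay above the floor. Gm38462, a non-coding RNA whose RefSeq span holds Hoxd8, read 106 (S100a8), 126 (S100a9) and 90.8 (control). Its log2 ratios to control of 0.23 and 0.47 stood beside 0.30 and 0.50 for Hoxd8. Whether these probe sets read separate transcripts was not tested. Hoxd3os1, which overlaps Hoxd3, read 104, 102 and 146 on 1 of its probe sets, log2 ratios of −0.49 and −0.52, the opposite side of control from Hoxd8. Hoxd3 itself was below the floor at 27.6, 36.5 and 35.4. Hoxa11os, which overlaps Hoxa11, stayed at 9.15 or less on every array, and Hoxb5os at 38.3 or less. The probe set shared by Hoxb7 and Hoxb8 read 25.6, 26.1 and 22.5. The pair of probe sets shared by Hoxd3 and Hoxd4 also lay below the floor, with at most 65.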
